A study of Mus musculus with 12 samples.

Results

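In mouse embryonic stem cells, 863 genomic regions carried Mediator peaks of high rank in every one of 8 ChIP libraries, before and after activation of the RAF kinase. To find them, the 8 deposited peak lists were merged wherever peaks overlapped by 1 bp or more, which gave 78166 regions. Of these, 17027 (21.8%) were called in all 8 lists and are named common regions here. In each library the common regions were ranked by the authors' score of their best peak and given a percentile. The 863 regions at the 80th percentile or higher in all 8 libraries, 5.07% of the common regions, are named steady high-rank regions. Scores and ranks chose these regions, so their values are given as a description and no test is made on them. "Steady" means only that the rank stayed at or above that percentile in every library, since single scores still differed several-fold within some regions.

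The cells were E14tg2a mouse embryonic stem cells (background strain 129SV) with a stably expressed cRAF-ErT2 cassette, a RAF kinase fused to a domain that 4OHT (4-hydroxytamoxifen) switches on, so that ERK signalling follows. All groups were grown in serum with LIF and 2 µM Chir99021, an inhibitor of GSK3, and then held for 24 h in serum with LIF and 250 nM PD173074, an inhibitor of FGF receptors. The 0 h cells received nothing further, and the 2 h cells received 250 nM 4OHT for that time. After crosslinking with formaldehyde and then disuccinimidyl glutarate, chromatin was precipitated with an antibody to MED1, or with anti-FLAG to recover MED24. Clones a and b were used in each of the 4 groups (MED1 or MED24, 0 h or 2 h), and 4 input samples are not analysed here. No vehicle-treated library and no library without the cassette was analysed, so 4OHT, time and kinase activation cannot be told apart. The labels do not say whether the libraries of a clone came from separate cultures, and p-values therefore measure only the spread between these samples.

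Mediator is a large complex of many subunits that carries signals from transcription factors bound at enhancers and promoters to RNA polymerase II. MED1 belongs to its middle part and MED24 to its tail, and MED1 is known for contacts with nuclear receptors and for dense binding at strong enhancers. In embryonic stem cells such dense binding is known at genes of the pluripotency network. Small nuclear RNA (snRNA) genes, which encode RNAs of the spliceosome and of other RNA processing machines, are short and very active genes, most of them transcribed by RNA polymerase II. Replication-dependent histone genes are short, clustered, without introns, and serve the packaging of newly made DNA.

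The libraries held 37483 to 48931 peaks. The lists give no read numbers, so depth is unknown. The percentile threshold corresponded to a score of 439 to 595, depending on the library. The median score of the steady high-rank regions was 907 to 1032 in the 4 MED1 libraries and 1256 to 1473 in the 4 MED24 libraries, beside 214 to 267 for all common regions. In the MED1 lists, which also give a fold enrichment, its median was 17.3 to 18.1 in the steady high-rank regions and 7.45 to 7.54 in the common regions. The labels call the second target MED24, but the names of its deposited peaks contain FLAG together with EP300, a different coactivator; the labels were followed. How reads that match several gene copies were treated is not given in the sources used here, which touches the repeated snRNA and histone genes below.

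**Figure D1:**
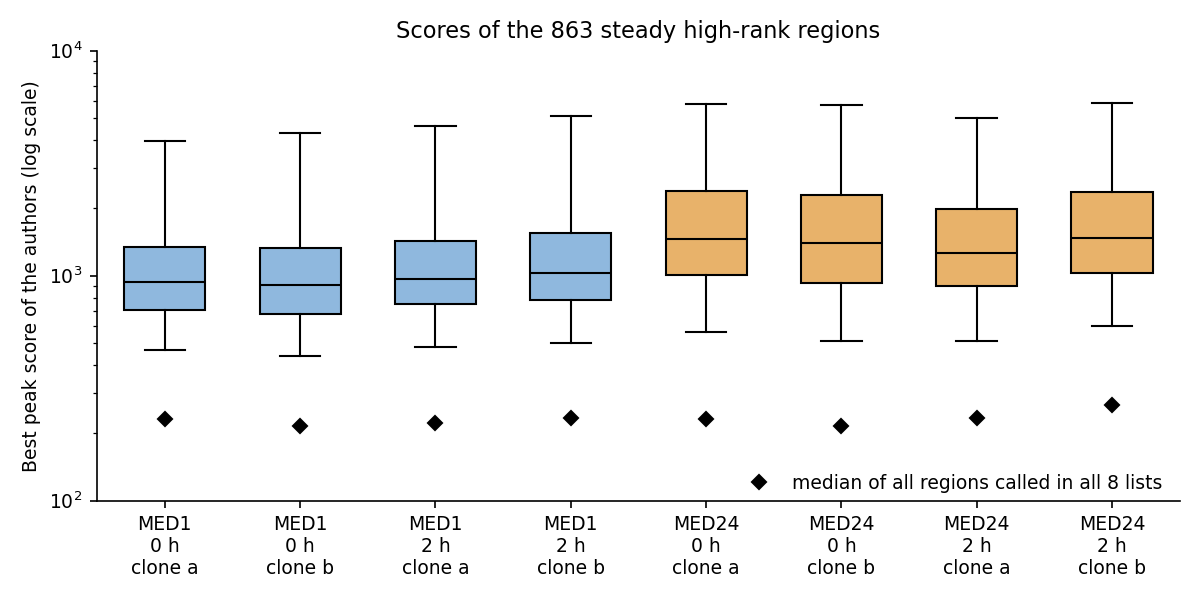
Authors' best peak score (log scale) of the 863 steady high-rank regions in each of the 8 libraries, with boxes from the lower to the upper quartile, a line at the median and whiskers to the lowest and highest value; diamonds mark the median of all 17027 common regions. Box medians lie between 907 and 1473 and diamonds between 214 and 267, a gap that follows from the way the regions were chosen.

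The sequences shown first are promoters of steady high-rank regions, because the regions with an annotated start could be read at base level from RefSeq (GRCm38.p6, 250 bases before to 50 after the start, in the direction of the gene). Gtf3c6 and Eapp are the starts among the 10 regions of highest rank, and Junb, Jund, Id3, H1f2 and H2bc3 come next in rank among the listed genes with a whole promoter window in a region, where H3c3, which shares its region with H1f2 and H2bc3, is left out. H2bc8, H2ac4 and Zfp42 were added after their values were seen, because they hold the octamer word described below. Capitals mark exact matches, on either strand, to the words searched, which were ATGCAAAT (POU octamer), AAGGTCA (ESRRB), CCACCC (KLF), GGGCGG (SP), CCGGAA (ETS), TGACTCA and TGAGTCA (AP-1), AAGATGG (YY1), GCATGCGC (NRF1) and CACGTG (E-box). Words of different factors can overlap in a run of capitals. A match is a description of letters and not a binding site.
Gtf3c6 (chr10:40257663-40257962, minus strand): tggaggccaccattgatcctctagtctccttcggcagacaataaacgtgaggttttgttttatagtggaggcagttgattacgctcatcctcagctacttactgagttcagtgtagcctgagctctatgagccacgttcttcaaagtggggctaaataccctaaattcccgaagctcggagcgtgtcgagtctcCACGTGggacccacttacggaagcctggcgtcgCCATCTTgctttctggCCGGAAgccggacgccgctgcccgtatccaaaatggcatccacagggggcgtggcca
Eapp (chr12:54695845-54696144, minus strand): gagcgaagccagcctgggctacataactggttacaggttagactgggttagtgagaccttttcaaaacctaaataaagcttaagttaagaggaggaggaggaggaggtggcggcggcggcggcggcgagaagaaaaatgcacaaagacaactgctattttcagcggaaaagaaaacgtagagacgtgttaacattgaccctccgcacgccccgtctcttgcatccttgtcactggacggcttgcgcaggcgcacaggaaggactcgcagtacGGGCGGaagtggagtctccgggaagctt
Junb (chr8:84978699-84978998, minus strand): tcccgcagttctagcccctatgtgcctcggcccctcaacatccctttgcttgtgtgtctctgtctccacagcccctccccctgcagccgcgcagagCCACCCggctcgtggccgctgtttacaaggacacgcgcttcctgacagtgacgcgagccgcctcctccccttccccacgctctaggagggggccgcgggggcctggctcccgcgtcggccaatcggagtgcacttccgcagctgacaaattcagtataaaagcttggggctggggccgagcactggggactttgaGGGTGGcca
Jund (chr8:70697489-70697788, plus strand): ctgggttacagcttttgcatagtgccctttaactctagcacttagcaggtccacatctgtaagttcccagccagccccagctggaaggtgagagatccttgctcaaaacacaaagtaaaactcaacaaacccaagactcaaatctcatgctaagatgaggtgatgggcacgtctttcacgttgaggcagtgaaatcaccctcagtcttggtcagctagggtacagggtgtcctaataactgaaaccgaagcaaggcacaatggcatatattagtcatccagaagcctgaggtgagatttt
Id3 (chr4:136143572-136143871, plus strand): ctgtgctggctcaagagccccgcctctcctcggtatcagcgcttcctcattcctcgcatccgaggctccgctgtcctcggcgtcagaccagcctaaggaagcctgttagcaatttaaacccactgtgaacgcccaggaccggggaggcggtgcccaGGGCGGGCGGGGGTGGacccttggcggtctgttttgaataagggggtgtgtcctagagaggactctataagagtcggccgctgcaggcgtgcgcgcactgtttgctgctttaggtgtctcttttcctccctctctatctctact
H1f2 (chr13:23738557-23738856, plus strand): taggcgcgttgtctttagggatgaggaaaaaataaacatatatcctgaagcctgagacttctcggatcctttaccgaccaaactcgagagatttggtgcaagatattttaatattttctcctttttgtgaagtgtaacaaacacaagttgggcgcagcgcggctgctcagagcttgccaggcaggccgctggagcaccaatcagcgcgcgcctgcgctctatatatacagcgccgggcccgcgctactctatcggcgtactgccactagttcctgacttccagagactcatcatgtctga
H2bc3 (chr13:23746484-23746783, plus strand): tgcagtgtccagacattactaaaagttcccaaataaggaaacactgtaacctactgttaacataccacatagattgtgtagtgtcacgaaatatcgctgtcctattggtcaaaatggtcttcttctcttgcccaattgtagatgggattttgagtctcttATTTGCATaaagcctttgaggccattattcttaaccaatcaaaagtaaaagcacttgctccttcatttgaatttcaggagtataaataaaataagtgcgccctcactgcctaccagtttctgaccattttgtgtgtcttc
H2bc8 (chr13:23571150-23571449, plus strand): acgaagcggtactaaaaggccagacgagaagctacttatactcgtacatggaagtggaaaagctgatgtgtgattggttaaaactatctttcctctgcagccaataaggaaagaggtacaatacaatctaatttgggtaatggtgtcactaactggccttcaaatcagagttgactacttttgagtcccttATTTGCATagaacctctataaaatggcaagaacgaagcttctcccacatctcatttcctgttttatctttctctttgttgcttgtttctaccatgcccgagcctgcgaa
H2ac4 (chr13:23750838-23751137, plus strand): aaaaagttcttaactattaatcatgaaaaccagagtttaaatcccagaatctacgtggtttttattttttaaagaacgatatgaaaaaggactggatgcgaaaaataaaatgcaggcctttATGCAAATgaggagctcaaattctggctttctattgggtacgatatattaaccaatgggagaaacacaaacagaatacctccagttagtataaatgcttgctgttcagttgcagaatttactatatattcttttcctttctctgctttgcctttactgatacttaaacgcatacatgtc
Zfp42 (chr8:43306960-43307259, minus strand): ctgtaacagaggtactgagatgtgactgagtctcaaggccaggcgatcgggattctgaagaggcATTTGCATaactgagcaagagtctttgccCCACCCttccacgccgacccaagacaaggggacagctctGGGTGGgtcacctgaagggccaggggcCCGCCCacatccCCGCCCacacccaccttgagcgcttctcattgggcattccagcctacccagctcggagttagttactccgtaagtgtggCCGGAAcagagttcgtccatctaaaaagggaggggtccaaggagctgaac

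Of the 863 regions, 284 contained the whole window of at least 1 such promoter, which gave 448 windows of 370 genes, and 71 regions held starts on both strands. The windows were rich in CpG: the median ratio of observed to expected CpG was 0.855, beside 0.828 for the 9858 windows in common regions and 0.383 for all 32817 windows. Their median GC content was 62.0%, beside 63.0% and 52.7%. The octamer word ATGCAAAT was present in 19 of the 448 windows (4.24%), beside 1.41% of windows in common regions and 1.74% of all windows. Histone genes held 10 of these 19 windows among 48 (20.8%), and the other genes held 9 among 400 (2.25%). Overlapping windows can hold the same match, as those of H2ac8 and H2bc8 did, so these count windows and not separate matches. An octamer upstream of H2B genes is a long-known element of their promoters, and the lines for H2bc3 and H2bc8 show it a short way before the start. Over all windows of these histone genes, whether or not in a steady high-rank region, the share was 21.3% (13 of 61). Those 61 include the 48 above, so the likeness of the shares was largely fixed beforehand and nothing is read from it. The KLF word (34.8%), the ETS word (29.9%), the E-box (11.4%) and the NRF1 word (5.58%) were found at shares close to those in common regions (36.5%, 32.9%, 11.7% and 6.53%). The SP word was in 62.3% of windows beside 70.5% in common regions and 35.6% of all windows. The YY1 word was in 9.15% of windows (7.86% in common regions, 6.34% of all), the AP-1 words in 4.46% (2.99% and 5.20%) and the ESRRB word in 3.57% (2.86% and 4.72%).

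Small nuclear RNA genes stood at the top of the ranking. Of the 39 common regions that overlapped an annotated snRNA gene, 33 (84.6%) were steady high-rank regions, beside 5.07% of all common regions. The 33 regions overlapped 34 genes, among them Rnu1a1 and Rnu2-10 (U1 and U2, RNAs of the major spliceosome), Rnu11 and Rnu12 (RNAs of the minor spliceosome, which removes a rare class of introns), Rnu5g (U5, shared by both spliceosomes), Rnu7 (which guides the processing of histone transcripts) and Rnu3a and Rnu3b1 to Rnu3b4 (U3, which acts in ribosomal RNA processing and is classed as an snRNA in the gene table). In 30 of the 33, the percentile was 95 or higher in every library, which held for 165 of all 863 regions. They made up 5 of the top 10, 12 of the top 20 and 15 of the top 30 regions by lowest percentile. The median distance from the middle of the MED1 summits to the gene was 29 bp. Of the 1004 snRNA genes in the gene table, 41 lay over a common region, so most annotated copies are outside these counts.

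The region of highest rank lay at chr4:117189261-117191484 (mm10) over Gm25099, an annotated snRNA gene, 6.637 kb from Kif2c. Its MED1 scores were 3755 and 3218 at 0 h and 4095 and 4001 at 2 h (clone a, then clone b, here and below). Its MED24 scores were 5348 and 4351 at 0 h and 4536 and 5014 at 2 h. The ranges at the 2 times overlapped for MED24, and for MED1 the 2 h scores were the higher ones. The region over Rnu11 at chr4:132268927-132270854 had MED1 scores of 3101 and 3329 at 0 h and 3887 and 3363 at 2 h. Its MED24 scores were 4652 and 4510 at 0 h and 4232 and 4981 at 2 h. All 8 values placed it at percentile 99.8 or above. The region at chr10:40256789-40260113 held both Rnu3a and the start of Gtf3c6, a subunit of the RNA polymerase III factor TFIIIC. MED1 scored 3458 and 3635 there at 0 h and 3883 and 4207 at 2 h, and MED24 scored 4364 and 4610 at 0 h and 4189 and 4572 at 2 h. The summits lay on Rnu3a (distance 0) and 883 bp from the Gtf3c6 start printed above. Likewise, the region at chr12:54694932-54698155 held Gm22513 under its summits and the start of Eapp 936 bp away.

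Tandem copies of snRNA genes carried separate peaks. Tex14, a gene of germ cell bridges, was the nearest gene to more steady high-rank regions than any other, 8 of its 12 common regions. Inside its span lay Rnu1a1, Gm22068 and the Rnu3b1 to Rnu3b4 copies, each under a region at percentile 96.7 or higher in all libraries. At Rnu1a1 (chr11:87421482-87424294) the MED1 scores were 2489 and 3123 at 0 h and 2961 and 2694 at 2 h, and the MED24 scores were 3926 and 4123 at 0 h and 3296 and 3026 at 2 h. The 2 times overlapped for MED1, while both MED24 values at 2 h were lower than both at 0 h. Mreg and Pecr, neighbours on chromosome 1, shared 6 steady high-rank regions within 42.5 kb, 4 of them over the snRNA genes Gm25360, Gm23472, Gm24497 and Gm25939. Rdm1 had 3 such regions, over Gm24950 and LOC115487916, and Eapp had 3, over Gm22513 and LOC115488065 and between them. The genes named by distance at these places are thus not the only annotated genes there.

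The 6 common regions over snRNA genes that were not of steady high rank included Rn7sk, which encodes the 7SK RNA that holds back the elongation factor P-TEFb and is transcribed by RNA polymerase III. Its MED1 scores were 293 to 502, its MED24 scores 237 to 358 and its percentiles 44.4 to 82.9. The other 5 regions held Gm25541, Gm24019, LOC115488100 with Gm23296, Gm26479 and Gm25064, genes of 106 to 126 bases, with lowest percentiles from 2.4 to 54.3. Other genes known as RNA polymerase III templates were measured too. Of 121 common regions over tRNA genes, 4 (3.31%, beside 5.07% of all common regions) were of steady high rank, and their median lowest percentile was 10.3, beside 18.1 over all common regions. Rmrp (43.2), Rpph1 (18.2), Rny1 (51.2), Rny3 (23.2), Rn7s1 (42.9) and Rn7s2 (26.6) had the lowest percentiles given in brackets, all at or above that median, and none was of steady high rank. Terc, the telomerase RNA, had a lowest percentile of 36.0.

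Small nucleolar RNA (snoRNA) genes encode RNAs that guide chemical changes of other RNAs. Of 49 common regions over them, 19 (38.8%) were of steady high rank, beside 5.07% of all common regions. Snord118 (U8), at chr11:69072809-69075036 beside Tmem107, was in the top 10, with MED1 scores of 3379 and 2773 at 0 h and 3105 and 3536 at 2 h and MED24 scores of 5202 and 4300 at 0 h and 3920 and 4160 at 2 h. Snord13, at chr8:31149082-31151066, had a lowest percentile of 99.4. The summits lay on Snord118 and 27 bp from Snord13, both of which are known to have promoters of their own. Other snoRNA genes in these regions sit within host genes, among them Rps12, Eif4a2, Rpl3, Rpl13 and Odc1, where the region also covers the host.

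**Figure D2:**
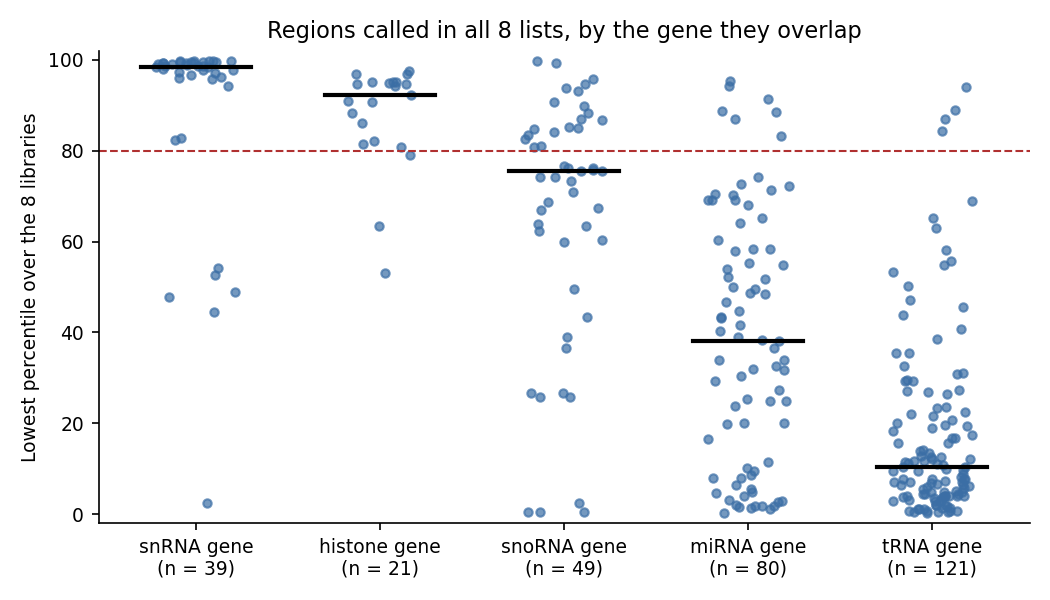
Lowest percentile over the 8 libraries for each common region that overlaps a gene of 5 classes; points are regions, black lines are medians and the dashed line is the threshold of 80. Regions over snRNA genes (median 98.5) and histone genes (92.3) lie mostly above the line, snoRNA regions (75.5) on both sides of it, and miRNA (38.2) and tRNA regions (10.3) mostly below.

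MicroRNA genes were at 80 of the common regions, and 7 (8.75%) of these were of steady high rank, beside 5.07% of all common regions. Nothing is read from this small count. One of the 7, at chr7:3216934-3223961, spanned the Mir290 to Mir295 cluster, whose miRNAs are the most abundant of mouse embryonic stem cells and are known to speed their cell cycle. Its MED1 scores were 2417 and 2502 at 0 h and 693 and 964 at 2 h. Its MED24 scores were 3949 and 3881 at 0 h and 1434 and 1906 at 2 h. All 2 h values were below all 0 h values, and the percentile went no lower than 88.6. Some mature 3p arms of this cluster are printed from RefSeq with the seed, bases 2 to 8, in capitals. They are the 5 arms with a seed beginning with AAGUGC among the arms available here. For Mir292 only the 5p arm was available, so its 3p arm was not read. Arms with other seeds, among them those of Mir293 (GUGCCGC), Mir290b (AGUGCCC) and Mir292b (AGAGCCC), are not printed.
mmu-miR-290a-3p (chr7:3218674-3218697, plus strand): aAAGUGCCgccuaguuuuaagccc
mmu-miR-291a-3p (chr7:3218968-3218989, plus strand): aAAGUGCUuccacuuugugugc
mmu-miR-291b-3p (chr7:3219529-3219550, plus strand): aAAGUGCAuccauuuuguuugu
mmu-miR-294-3p (chr7:3220691-3220712, plus strand): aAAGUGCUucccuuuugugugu
mmu-miR-295-3p (chr7:3220815-3220837, plus strand): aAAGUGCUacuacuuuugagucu

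The arms of Mir291a, Mir294 and Mir295 shared the seed AAGUGCU, and those of Mir290a and Mir291b differed from it in the last seed base. The other miRNA genes over steady high-rank regions were Mir1894 (lowest percentile 95.4), Mir6935 (94.1), Mir1934 (91.4), Mir207 (88.8), Mir1893 (86.9) and Mir135b (83.2).

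Replication-dependent histone genes were the listed group with the largest share. Of 31 listed genes, 30 lay over a common region and 29 over a steady high-rank region: 5 of 5 H1 genes, 6 of 7 H2A, 6 of 6 H2B, 6 of 7 H3 and 6 of 6 H4. Counted by region, 18 of 21 common regions over these genes (85.7%) were of steady high rank, with a median lowest percentile of 92.3 over the 21, beside 18.1 over all common regions. The exceptions among the genes were H2ac18, with no common region, and H3c14, whose lowest percentile was 53.0. Together, snRNA and listed histone genes lay under 51 of the 863 regions (5.91%). The list was chosen with results of these data known, so the count is a description.

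The widest histone region, 11.3 kb at chr13:23737889-23749223, held H1f2, H3c3 and H2bc3. Its MED1 scores were 3544 and 3200 at 0 h and 2056 and 2280 at 2 h, and its MED24 scores were 3742 and 3805 at 0 h and 1950 and 2442 at 2 h. The 2 h values were lower than the 0 h values in both proteins without overlap, while every percentile stayed at 97.6 or above. A group of 8 steady high-rank regions ran over 57.1 kb of the main histone cluster, chr13:23529975-23587085, and was the largest group found. Outside the clusters, H4f16 at chr6:136803076-136805337 had MED1 scores of 1587 and 1535 at 0 h and 1674 and 1601 at 2 h. There MED24 scored 2374 and 1738 at 0 h and 1977 and 2347 at 2 h, so that the 2 times overlapped for MED24 and for MED1 the 2 h values were slightly the higher ones.

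ERK immediate early genes, which are known to be induced by ERK without new protein synthesis, had 9 steady high-rank regions among 36 common regions (25%), beside 4.996% of all common regions that had a protein-coding gene within 100 kb. Egr1, a zinc finger factor, was covered by a region of 9.189 kb at chr18:34858131-34867319. Its MED1 scores were 3917 and 4082 at 0 h and 4638 and 4731 at 2 h, and its MED24 scores were 4094 and 4301 at 0 h and 4511 and 5089 at 2 h. Each 2 h value was higher than each 0 h value of the same protein, and the lowest percentile was 99.7 already in untreated cells held without FGF receptor signalling. Ier2, a small nuclear protein, lay in the region of 11.9 kb that was the widest but for Malat1, with MED1 scores of 2175 and 2367 at 0 h and 2610 and 2769 at 2 h, and MED24 scores of 4136 and 3528 at 0 h and 2634 and 3181 at 2 h. The direction of the 0 h and 2 h values at Ier2 was thus opposite in the 2 proteins.

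Of the AP-1 genes in this list, Junb, Jund and Fos had steady high-rank regions, while Jun and Fosb had none. The best common region of Jun had a lowest percentile of 46.0 and that of Fosb 58.1. At Junb the MED1 scores were 3988 and 3982 at 0 h and 2170 and 1768 at 2 h, and the MED24 scores were 5028 and 5406 at 0 h and 2879 and 2900 at 2 h. All 2 h values were below all 0 h values, although the percentile remained at 98.3 or above. The region over Fos itself went from MED1 scores of 1696 and 1686 at 0 h to 997 and 944 at 2 h, and from MED24 scores of 3035 and 2507 to 1298 and 1475. A second Fos region, 7.957 kb from the gene, had MED1 scores of 1269 and 1103 at 0 h and 1119 and 1200 at 2 h, and MED24 scores of 3135 and 3076 at 0 h and 2512 and 3023 at 2 h. Jund had MED1 scores of 2659 and 2481 at 0 h and 2526 and 2705 at 2 h, and MED24 scores of 3923 and 3183 at 0 h and 2135 and 2908 at 2 h. In both of these the times overlapped for MED1, and for MED24 the 2 h values were the lower ones. Klf6 and Klf10 encode zinc finger factors, and some of their regions had higher values at 2 h: the region 56.6 kb from Klf6 had MED1 scores of 803 and 739 at 0 h and 2368 and 2500 at 2 h, and Klf10 had MED24 scores of 622 and 592 at 0 h and 1981 and 2348 at 2 h. Over Klf6 itself the MED1 scores were 836 and 584 at 0 h and 848 and 937 at 2 h, higher without overlap. The MED24 scores there were 966 and 573 at 0 h and 618 and 889 at 2 h, with overlap.

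Feedback inhibitors and targets of ERK had 6 steady high-rank regions among 50 (12.0%), at Dusp4, Dusp6, Etv5 and Il17rd. Dusp6 encodes a phosphatase that removes the activating phosphates of ERK, and its own start lay in the region chr10:99260977-99264221. MED1 scored 637 and 500 there at 0 h and 828 and 560 at 2 h, with overlap. MED24 scored 695 and 923 at 0 h and 1427 and 1819 at 2 h, without overlap. At Dusp4, a nuclear phosphatase of MAP kinases, the region 79.1 kb from the gene had MED1 scores of 818 and 681 at 0 h and 1242 and 1316 at 2 h. Etv5, an ETS factor, had 2 of its 9 common regions among the steady ones, and Il17rd, a membrane inhibitor of FGF signalling, had 1 of 2.

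Naive pluripotency genes had 7 steady high-rank regions of 48 (14.6%), core pluripotency genes 11 of 71 (15.5%) and embryonic stem cell markers 12 of 54 (22.2%). These lists share genes. Zfp42 (REX1) had a region 13.4 kb from the gene, at chr8:43320376-43322212, whose MED1 scores were 2019 and 2337 at 0 h and 1770 and 2667 at 2 h and whose MED24 scores were 3786 and 3875 at 0 h and 3654 and 4207 at 2 h. Both times overlapped in both proteins. Klf4, at a region 45.6 kb from the gene, had lower scores at 2 h: its MED1 scores were 3875 and 3734 at 0 h and 1001 and 1032 at 2 h. MED24 scored 5776 and 5748 there at 0 h and 1662 and 2047 at 2 h. Its percentile was 94.4 or higher in every library. Within Esrrb, an orphan nuclear receptor of the naive network, the MED1 scores were 3124 and 3425 at 0 h and 1454 and 1380 at 2 h. Nanog had MED1 scores of 1689 and 1437 at 0 h and 649 and 654 at 2 h at a region 2.86 kb from the gene. At Pou5f1 (OCT4) the MED1 scores were 1306 and 1611 at 0 h and 1092 and 1249 at 2 h. Klf4, Esrrb, Nanog and Pou5f1 had lower 2 h than 0 h MED1 scores without overlap, and of the genes named here Zfp42 did not. At the other steady region of Zfp42, over the gene itself, the MED1 scores were 911 and 895 at 0 h and 1171 and 1111 at 2 h. These were higher at 2 h without overlap, while the MED24 scores overlapped (2246 and 2092 at 0 h, 2157 and 2380 at 2 h).

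Sox2 had 2 steady high-rank regions within 100 kb, one over the gene with a lowest percentile of 89.1 and one 90.9 kb away with 91.6. Another lay 102.3 kb from Sox2, at chr3:34754780-34762204, in the stretch known to hold the distal enhancer of this gene in embryonic stem cells. It had the highest rank among the 58 steady high-rank regions with no protein-coding gene within 100 kb. Its MED1 scores were 3046 and 2725 at 0 h and 2464 and 2902 at 2 h, and its MED24 scores were 5514 and 4806 at 0 h and 3707 and 4221 at 2 h. The next in that order lay 142.2 kb from Pik3c3, 236.9 kb from Tle4, 109.4 kb from Qrfprl and 273.1 kb from 1810013L24Rik. At the Pik3c3 region the MED1 scores were 1703 and 1694 at 0 h and 3587 and 3550 at 2 h. Its MED24 scores were 2575 and 2730 at 0 h and 3890 and 3931 at 2 h. The MED24 direction was the reverse of that at the region 102.3 kb from Sox2, where the times overlapped for MED1.

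Jarid2, a cofactor of Polycomb complex 2, had 3 steady high-rank regions within 24.1 kb of the gene (lowest percentiles 96.4, 90.8 and 89.5), and Sall1, a zinc finger repressor, had 2 of its 13 common regions. Components of LIF signalling were represented by Il6st and Lifr, the receptor chains, and 5 of 35 common regions of that list (14.3%) were of steady high rank. Of the Wnt targets, 3 of 20 (15.0%) were, at Tcf7l1 and Tcf7l2, the DNA-binding partners of beta-catenin. The Tcf7l2 region, 28.4 kb from the gene, had MED1 scores of 783 and 514 at 0 h and 3942 and 4223 at 2 h, and MED24 scores of 1183 and 1026 at 0 h and 4352 and 4890 at 2 h. In the BMP list 6 of 35 (17.1%) were, and Id3, which blocks the binding of basic helix-loop-helix factors to DNA, had the highest rank with a lowest percentile of 98.0. Lefty1, a secreted inhibitor of Nodal, went from MED1 scores of 2116 and 2478 at 0 h to 827 and 1220 at 2 h, while a Smad7 region 21.1 kb from its gene went from 705 and 1005 to 2313 and 2510. The other steady Smad7 region, 5.708 kb from the gene, went the opposite way, from MED1 scores of 783 and 730 to 544 and 642.

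**Figure D3:**
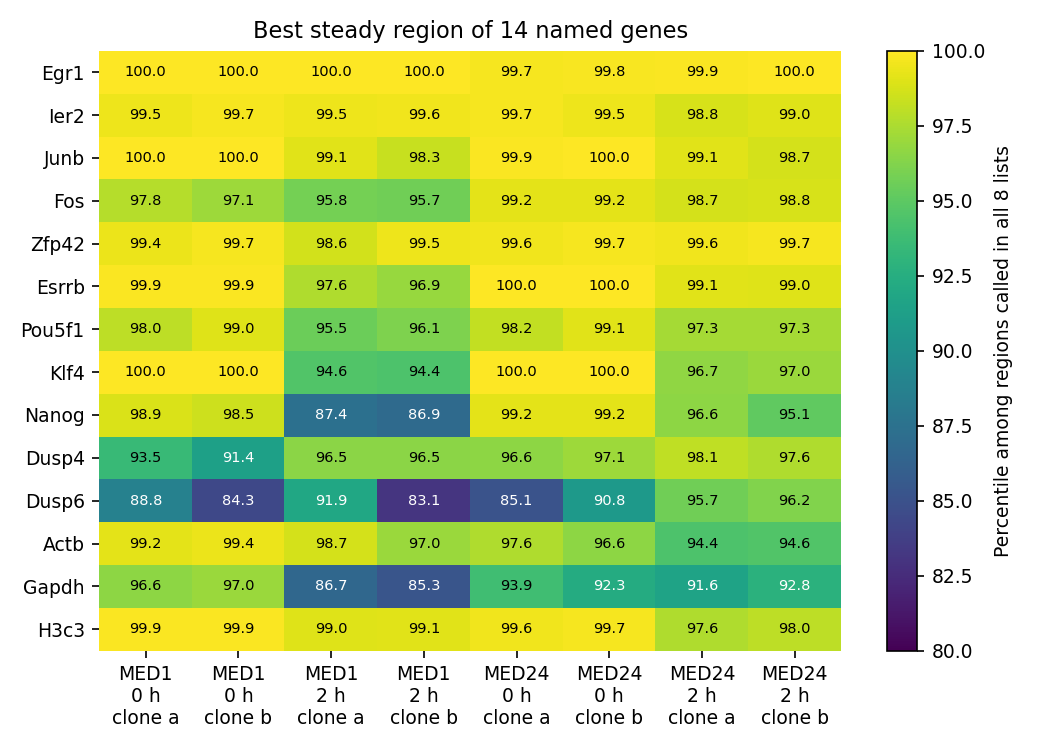
Percentile among the common regions in each of the 8 libraries for the steady high-rank region of highest rank at 14 genes chosen from the lists; colours run from 80 (dark) to 100 (light). Egr1 stays at 99.7 or above throughout, Klf4 ranges from 94.4 to 100 and Nanog from 86.9 to 99.2 with the lower MED1 values at 2 h.

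Lists of general cell function had shares above the 4.996% of all assigned common regions, though many of their genes had no steady high-rank region. Of the housekeeping list, 14 of 35 common regions (40.0%) were of steady high rank, at 11 of 19 genes with a common region. Those without one included Gusb, Tbp, B2m, Nono and Pgk1, whose best regions had lowest percentiles of 1.2 to 16.6. Of the cytosolic ribosomal protein genes, 10 of 60 common regions (16.7%) were, at 10 of 45 genes. Ubb, a polyubiquitin gene, had MED1 scores of 1364 and 1522 at 0 h and 1336 and 1652 at 2 h, and MED24 scores of 1980 and 2054 at 0 h and 1835 and 1897 at 2 h. At Actb, the cytoplasmic actin gene, the lowest percentile was 94.4, and at Gapdh, a glycolytic enzyme gene, it was 85.3. Rps12 had the highest rank of the ribosomal protein genes, with a lowest percentile of 94.7, followed by Rps20 (93.04) and Rps28 (88.5). Growth and metabolism genes had 7 of 45 (15.6%), at 6 of 17 genes with a common region. Among them were Odc1, the rate-limiting enzyme of polyamine synthesis, and Eno1, Pkm and Slc2a3 of glycolysis and glucose uptake. Aldoa, Tpi1 and Phgdh were among those without one.

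The remaining lists are small, and their counts are read beside the 4.996% of all assigned common regions, with nothing read from counts of 0 or 1. Mediator subunit genes had 1 of 37 common regions (2.70%), at Ccnc, the cyclin of the Mediator kinase module, and chromatin regulators had 1 of 41 (2.44%), at Eed. Formative epiblast genes had 2 of 26 (7.69%), at Foxd3 and Zic5. The mesendoderm list had 0 of 6 common regions, the neural list 0 of 11 and the primitive endoderm markers 0 of 8. Trophectoderm markers had 2 of 13 (15.4%), both at Tfap2c, a gene also active in embryonic stem cells, and fibroblast markers had 1 of 7 (14.3%), 7.951 kb from Col3a1. Of the 14 stem cell marker genes, 14 had a common region and 9 a steady high-rank one. Of the 8 trophectoderm markers 4 had a common region and 1 a steady high-rank one, of the 10 fibroblast markers 4 and 1, and of the 10 primitive endoderm markers 5 and 0.

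**Figure D4:**
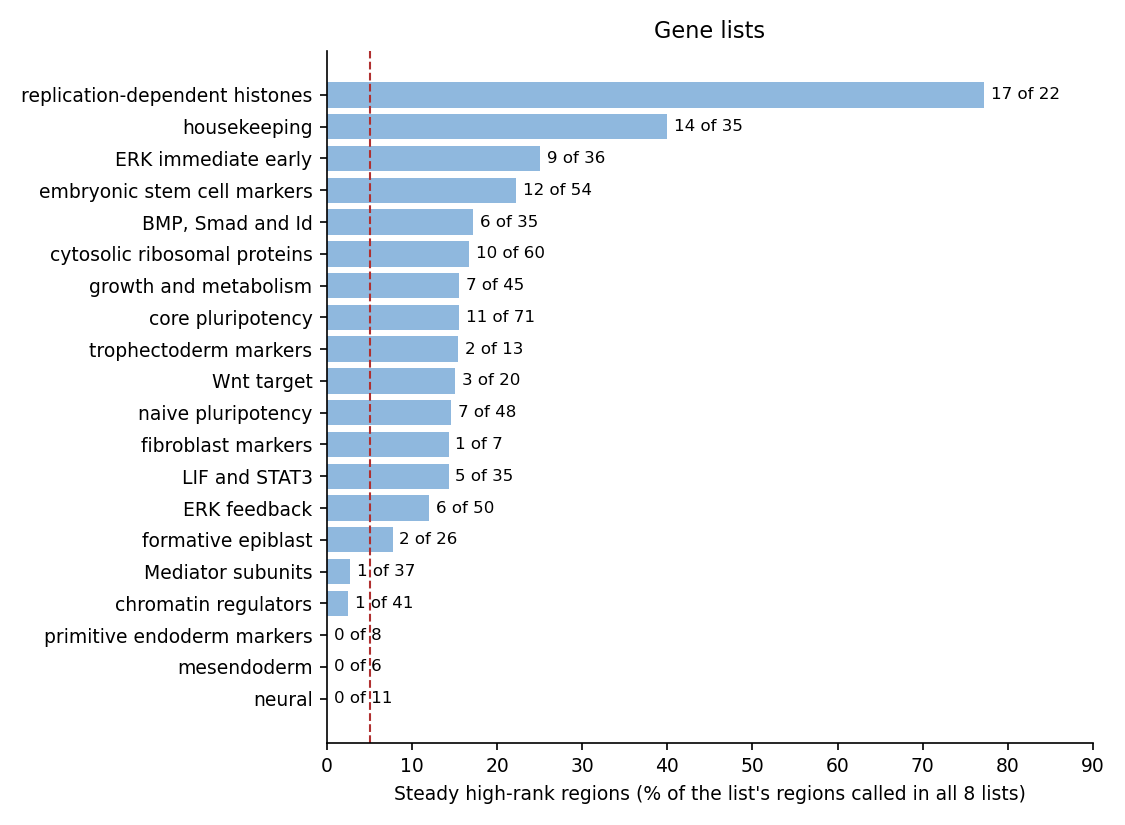
Share of each gene list's common regions that were of steady high rank, with the counts beside the bars, with each region given to its closest protein-coding gene if that is within 100 kb; the dashed line is the share over all common regions so assigned, 4.996%. Histone genes (17 of 22 by this assignment) and housekeeping genes (14 of 35) have the longest bars, and 3 lists have none.

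Steady high-rank regions were wide. Their median width after merging was 2065 bp, beside 1094 bp for the common regions, and 8.92% were over 5 kb, beside 0.769%. Width and score come from the same peaks, so the relation is a description of how the regions were selected. Of the common regions up to 1 kb wide, 1.10% were of steady high rank, and of those over 5 kb, 58.8%. The widest, at 15.6 kb, covered the start of Malat1, a nuclear long noncoding RNA, with Mascrna, a small RNA cut from its end. The others of the 5 widest lay at Ier2, near Frmd8 (11.8 kb), at H3c3 and at Ubqln4 (10.8 kb). At Malat1 the MED1 scores were 2713 and 2968 at 0 h and 3237 and 3230 at 2 h.

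**Figure D5:**
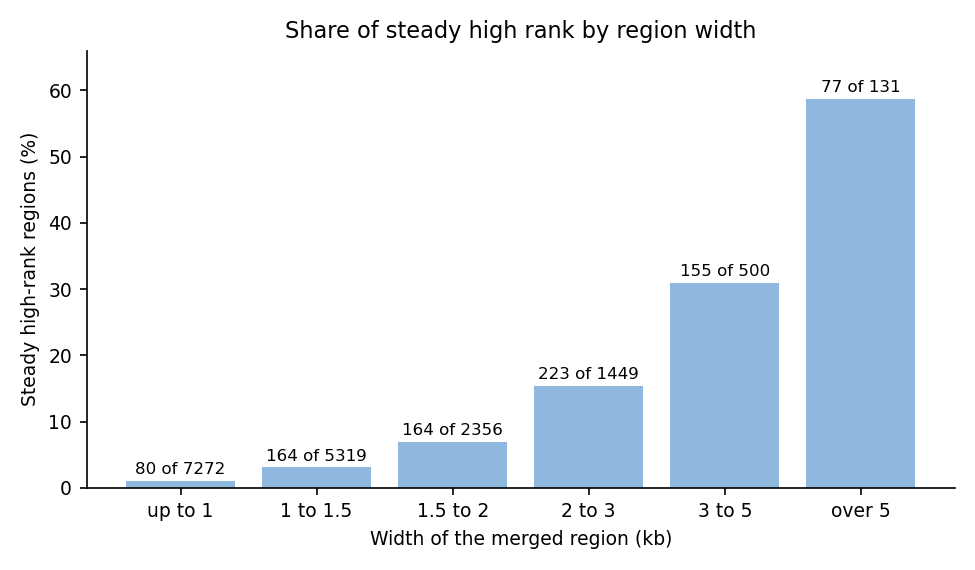
Share of common regions that were of steady high rank, by width of the merged region, with counts above the bars. The share goes from 1.10% up to 1 kb to 58.8% over 5 kb.

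A smaller share of these regions than of the common regions lay at placed transcription starts, as counts over regions with no test. Of 842 with placed starts on their chromosome, 294 (34.9%) lay within 1 kb of a placed start, beside 46.0% of the common regions. A further 47.5% lay more than 10 kb from any placed start, beside 38.6%. Many genes have no placed start, so such a region can still lie over a gene. The region over Rps20 was 241.5 kb from a placed start, and 5 of the 33 snRNA gene regions lay at one. Within 1 kb of either end of a protein-coding gene lay 37.1%, beside 48.5% of the common regions. With the same rule on the MED1 libraries alone, 52.3% of 1924 regions lay at a placed start, and on the MED24 libraries alone, 29.1% of 1890. Both of these runs merged the peaks and chose the common regions anew from fewer libraries. The shares of those common regions at a start were not computed, so no effect of the ranking protein is read from these values. Those of the 863 at a start were wider (median 2641 bp) than those away from one (1773 bp). The MED1 summits of the 4 libraries fell close together: their median spread was 57 bp, beside 110 bp in the common regions, and 73.9% of regions had all 4 within 100 bp, beside 46.2%. Within the stitching distance customary for super-enhancers, 53.8% had another common region (38.6% of all common regions), and 114 of the 863 (13.2%) formed 46 groups of 2 or more steady high-rank regions. Besides the snRNA and histone groups, Klf9, a glucocorticoid-responsive zinc finger gene, had 4 steady high-rank regions of 8, and Cct8l1, Reep3, Tsc22d1 and Myo10 had 3 each. By chromosome the share was highest on chromosome 6 (85 of 1131, 7.52%) and lowest on X (6 of 361, 1.66%) and Y (0 of 14).

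The rank criterion was met in very different ways around its edge. The regions just inside were at Eef2 (lowest percentile 80.01), Eed (80.02) and Caprin2 (80.07), and those just outside were near Egr2 (79.99), near Dpp6 (79.98) and at Gtf3c5 (79.97). The region 74.9 kb from Egr2 missed the threshold in a single library, with MED1 scores of 674 and 715 at 0 h and 2216 and 2344 at 2 h. In all, 362 common regions were at the threshold in 7 of the 8 libraries, and 9992 in none. Of the 17027 common regions, 1705 were at the threshold in all 4 libraries of 0 h, 400 of them in none of 2 h. In all 4 libraries of 2 h there were 2010, 624 of them in none of 0 h. All 4 MED1 libraries held 1582, 381 of them in no MED24 library. All 4 MED24 libraries held 1527, 75 of them in no MED1 library. These counts describe the threshold, and no difference between times or proteins was tested with them.

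Among the 863, the 5 with the widest spread of percentile were Rbm25 (80.5 to 99.7), the region at the start of Platr22 64.3 kb from Zfp281 (80.6 to 99.4), Rictor (80.5 to 99.0), the region near 4930444G20Rik (80.8 to 99.2) and Manba (81.5 to 99.7). In all 5 the scores were higher at 2 h than at 0 h in both proteins and both clones. At Manba, a lysosomal mannosidase gene, MED1 scored 484 and 596 at 0 h and 1798 and 2422 at 2 h. Over all 863, the percentile was higher at 2 h in both clones of both proteins in 184 regions (21.3%, beside 21.4% of common regions), lower in 307 (35.6%, beside 24.1%) and mixed in 372. The same percentiles chose these regions, and their median was 94.1 to 95.4 by library. Most thus had little room to rise, which common regions did not share, so no excess is read from these shares. The median difference of percentile, 2 h minus 0 h, was -0.96 and -0.77 in MED1 and -0.46 and -0.39 in MED24 for clones a and b.

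Measures that the ranking did not use were compared between 0 h and 2 h over libraries, by exact two-sided permutation tests of 2 libraries against 2, which cannot give a p below 0.3333. There were 6 such tests. The measures come from the same peaks whose scores chose the regions, so they are not independent of that choice. The steady high-rank regions held 7.81% ± 0.140 (SD, n = 2) of all MED1 peak bases at 0 h and 6.91% ± 0.203 at 2 h (exact p = 0.3333, Benjamini-Hochberg adjusted p = 0.6667). For MED24 the share was 7.52% ± 0.308 at 0 h and 6.46% ± 0.315 at 2 h (exact p = 0.3333, adjusted p = 0.6667). Both shares were lower at 2 h in both clones, without overlap, beside longer lists of peaks at 2 h in each clone. The median width of the peaks in these regions was 1449.5 bp ± 33.2 at 0 h and 1472 bp ± 117 at 2 h for MED1 (exact p = 1), and 1337 bp ± 42.4 and 1286.5 bp ± 118 for MED24 (exact p = 1), a difference within the spread of the clones. Peaks per region numbered 1.37 ± 0.0246 and 1.39 ± 0.0426 for MED1 (exact p = 0.6667), and 1.40 ± 0.00655 and 1.45 ± 0.0565 for MED24 (exact p = 0.3333, adjusted p = 0.6667). None of the 6 could pass a threshold of 0.05 in this design.

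Within 50 kb of the steady high-rank regions lay 6079 regions that were not called in all 8 lists. A region counts as gained where both 2 h clones and no 0 h clone had a peak, and as lost in the reverse case. Of these neighbours, 15.4% were gained in MED1, beside 18.6% of all such regions and 17.8% of those within 50 kb of any common region. For loss of MED1 the share was 8.09%, beside 7.16% and 7.11%. In MED24, 13.1% were gained, beside 16.7% and 16.2%, and 8.09% were lost, beside 9.18% and 8.45%. The shares gained around steady high-rank regions were the lowest of the 3 in both proteins, a description over regions with no test.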

How the data were processed

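Mediator ChIP-seq peaks of 8 libraries were analysed, with groups taken from the sample titles. The authors called peaks per library with the mm10 build; Bowtie2, MACS2 and bedtools appear in the submitters' processing notes, without versions. Settings, and how the inputs entered, are not given here. Per the narrowPeak layout, the deposited MED1 lists give a score, a fold enrichment (a ratio), a −log10 p-value and a −log10 q-value per peak, all the authors' own, where rounding down 10 times the −log10 q gave the deposited score in every peak (100%). The deposited MED24 lists give a score only, whose meaning they do not state. The lowest score was 20.

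Merging, ranking and tests were done in Python 3.11.15 with pandas 2.3.3, numpy 2.4.6 and scipy 1.17.1, and checked on simulated data. Genes and starts come from RefSeq tables of GRCm38.p6, the build that mm10 stands for: 17491 of 21883 protein-coding genes had a placed start, and none on chromosome 18, which holds 21 of the regions. Each region was given to its closest protein-coding gene if that lay within 100 kb. All 330 genes of the 20 lists were matched, histones through unique synonyms. Members and lists were chosen with earlier results of these data known.

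Named were the 10 regions of highest lowest percentile, the 5 with the widest and the narrowest spread, the 3 just inside and outside the threshold, the 5 widest, the 5 of highest rank without a gene in reach, the 10 genes with most regions and up to 4 genes per list. The small RNA genes, Myo10, Jund, Klf10, Pou5f1, Nanog, Actb, Gapdh and the genes printed for their octamer were named after their values were seen. Libraries of the same clone share a cell line and were treated as pairs in an alternative; the deviations of same-clone libraries from their group means correlated by -0.0064 in MED1 and -0.0078 in MED24.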

Additional observations from a re-analysis of the deposited data

How the results depend on the processing

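The share of snRNA gene regions that were of steady high rank lay within its exact binomial interval, 69.5% to 94.1%, under all 16 alternatives tried. That interval takes each region as independent, although some hold tandem copies, and all alternatives draw on the same peak lists. It thus serves as a yardstick and not as a test. At a threshold of the 70th percentile, 1554 regions qualified, with a median width of 1905.5 bp, 41.6% at a start and 8.94% at a listed gene. At the 90th percentile the values were 359 regions, 2463 bp, 29.8% at a start, 17.3% within the stitching distance of another such region, and 61.9% of histone gene regions. Peaks with a score of 100 or more gave 444 regions, 2298.5 bp, 31.6% at a start and 17.1% within the stitching distance, and the summed score gave 2305 bp. MED1 libraries alone gave 1924 regions, 1657.5 bp, 52.3% at a start and 7.59% at a listed gene. MED24 libraries alone gave 1890 regions, 1419.5 bp, 29.1% at a start, 15.7% within the stitching distance and 8.25% at a listed gene. Stitching over 5 kb gave 8.92% and over 25 kb 17.8%, and starts measured from the MED1 summits gave 30.2% (44.2% in common regions), an alternative chosen after seeing the data.

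Without 1 library at a time, the number of regions ran from 903 to 965, the median width from 1961 to 2042 bp (1961 bp without MED1 2 h clone b), the share at a start from 33.8% to 36.9%, the share within the stitching distance from 12.53% to 13.9%, the share at a listed gene from 11.0% to 11.7%, and the snRNA and histone shares from 82.5% to 84.6% and from 81.8% to 90.5%. The 2 h minus 0 h difference of median peak width lay between -60.5 and 105.5 bp in MED1 and between -134 and 33 bp in MED24, and that of peaks per region between -0.00579 and 0.0545 in MED1 and between 0.0139 and 0.0939 in MED24. The sign of the MED1 width difference turned without 0 h clone b (-1 bp) or 2 h clone b (-60.5 bp), that of the MED1 peaks per region without 2 h clone a, and that of the MED24 width without 2 h clone a. The share of peak bases differed by -1.05 to -0.764 percentage points in MED1 and by -1.28 to -0.835 in MED24. With clone as a replicate block the differences were the same, -0.907 percentage points for the MED1 and -1.06 for the MED24 share of peak bases, with a smallest possible p of 0.5. A lower threshold or fewer libraries admits more regions by construction; the cause of the other moves was not tested.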
